A study of Camponotus floridanus with 15 samples.

Results

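The comparison is between adult ants and late pupae of the carpenter ant *Camponotus floridanus*, with castes and sexes pooled. It takes the 3 libraries of emerged ants, 1 of males and 2 of minors, as one group, and the 4 late pupa libraries, 2 of majors and 2 of minors, as the other. These 7 of the 15 libraries of the series were chosen by their labelled stage, and all genes of the deposited table were examined. The labels give the adult stages as male and minor without the word adult, and they name no strain, colony, age or treatment. Majors are the large-bodied workers of this species and minors the small-bodied ones. No adult major and no male pupa was among these libraries, so the adult pool holds a sex and the late pupa pool a caste that the other lacks, and a difference between the pools cannot be told apart from these differences in make-up.

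Ants pass through complete metamorphosis. Larval tissues are broken down in the pupa, the adult body is built inside the pupal case, and in late pupae the adult cuticle is laid down, hardened and darkened. At eclosion the adult sheds the case and begins to feed. Workers are females that tend brood and forage, and males are winged and develop from unfertilised eggs. Whole-body libraries mix all tissues, so fewer cells of a type and less RNA per cell cannot be told apart in the values below.

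Poly(A) RNA of whole bodies was sequenced in libraries that keep the strand, from ants held in a plaster nest and fed sugar water and a prepared diet. The table gives RPKM, a read number scaled for gene length and for library size, for 18979 gene IDs. Of these IDs 0 were found among 14020 RefSeq entries for the species, so genes are given by ID with no function, and the stage labels could not be checked against known adult or pupal genes. Whether the libraries of a group are separate animals or colonies is not in the labels. The p-values therefore measure the spread between these libraries. In the tests of the pools that spread includes the differences of sex and caste within a pool, and the rest may be technical. Reads recovered from the steps of the values numbered between 4100000 and 8880000 per adult library and between 3120000 and 5310000 per late pupa library on the 13277 genes with a recovered length. The library size used in the RPKM, recovered likewise, was 21280000 reads in male and 34150000 and 21360000 in minor. In late pupae it was 17290000 to 26740000. These sizes exceeded the reads on genes, and what they count is not given in the sources. On a gene of 1000 nt, 3 reads corresponded to 0.0879 to 0.173 RPKM across the 7 libraries.

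Late pupa minor replicate 1 stood apart in both directions, and male lay nearer to late pupae in most genes called higher without it. When late pupa minor replicate 1 was left out of the tests, it lay nearer to adults than all 3 other late pupae in 325 of the 412 genes then called lower in adults (78.9%) and in 409 of the 714 then called higher (57.3%). For each other late pupa library, left out in the same way, these shares were 9.63% to 17% and 18% to 24.1%. The male library, left out likewise, lay nearer to late pupae than both minor libraries in 1020 of 1252 genes called higher in minors than in late pupae (81.5%), and it reached into the late pupal range in 375 of them (30%). For the minor libraries these shares were 29.9% and 28.1% nearer, and 0.95% and 3.49% within the late pupal range. Among genes called lower without it, male was the nearer in 52.6%, against 28.3% for minor replicate 1 and 43.4% for minor replicate 2, each left out likewise. The shares of male and minor are not like for like. Genes called without male were chosen on both minor libraries alone, and those called without a minor library on male and the other minor. How much of the difference comes from this choice was not tested. Male and late pupa minor replicate 1 are therefore given by their own values below, and counts of calls are given with and without them where they move.

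The transcript pool was far more even in adults than in late pupae. The most abundant gene took 1.41% of the RPKM total in male and 2.75% and 2.2% in minor, against 14.7% and 13.5% in major and 17.9% and 16.3% in minor late pupae. The 10 most abundant genes took 8.77%, 13.9% and 13.3% in the adult libraries, against 43.4%, 38.2%, 36.3% and 35.8% in the late pupa libraries. The number of genes that together held 50% of the RPKM total was 276 in male and 148 and 104 in minor, against 22 and 36 in late pupa major and 40 in each late pupa minor library. The pools did not overlap in any of these 3 measures. The share in the 50 most abundant genes averaged 30.7 ± 6.09% in adults and 54.6 ± 2.45% in late pupae (SD, n = 3 and 4). All 4 measures gave p = 0.0571 in a two-sided exact permutation test over all 35 arrangements of the libraries, which is the smallest p that 3 against 4 libraries allow.

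**Figure D1:**
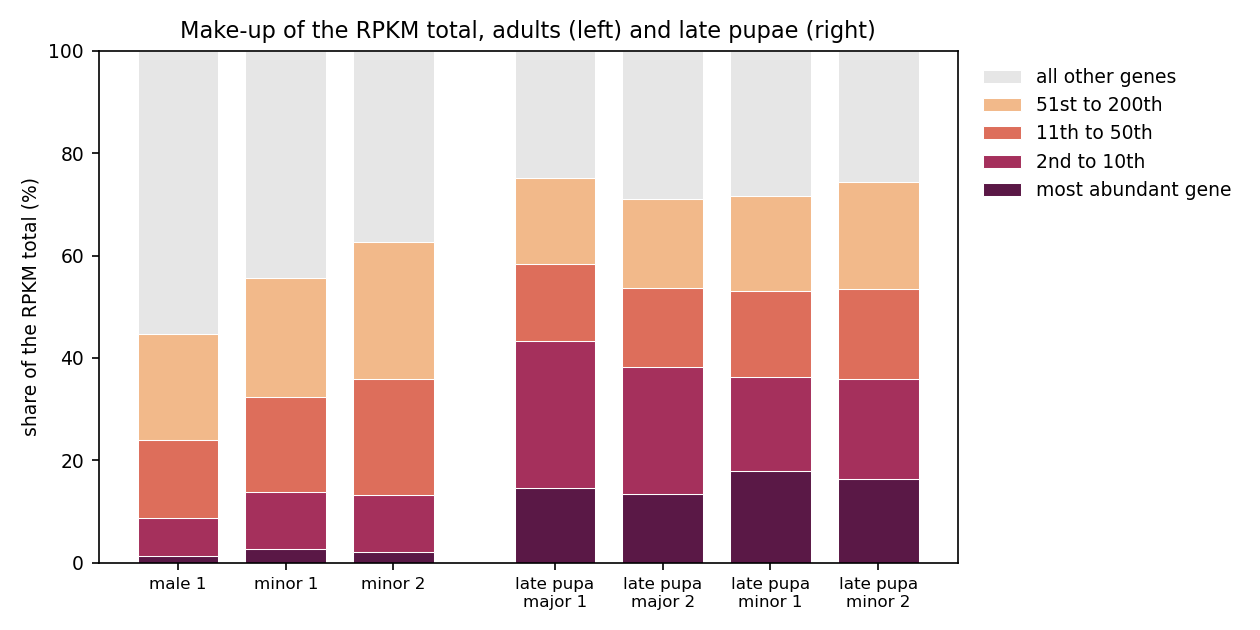
Share of the RPKM total (%) taken by the most abundant genes of each library, ranked within that library, in 3 adult libraries (left) and 4 late pupa libraries (right). The 10 most abundant genes take at most 13.9% in adults and at least 35.8% in late pupae.

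The largest losses of share in adults were those of 2 genes. CFLOG025650.1 stood at 8.79 RPKM in male and 87.7 and 31.9 RPKM in minor, against 36612 and 41546 RPKM in major and 54389.6 and 45314 RPKM in minor late pupae. Every late pupa library was far above every adult library. Its mean share of the RPKM total was 0.0131% in adults and 14.7% in late pupae, and its level differed by -10.49 ± 0.59 log2 units (SE, limma, adjusted p = 5.7e-06). CFLOG005200.2 took a mean share of 0.00265% in adults and 8.86% in late pupae. It was higher in late pupae of the major caste (47638 and 31583 RPKM) than of the minor caste (14485 and 16038 RPKM), whereas adults had 3.76 RPKM in male and 12.4 and 9.17 RPKM in minor. Its log2 difference of -11.46 ± 0.48 (SE, limma, adjusted p = 1.2e-06) was the most negative of the genes that passed on both scales without overlap.

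The largest gains of share in adults were smaller than these losses. CFLOG006752.2 had 2.53 RPKM in male and 9445 and 5716 RPKM in minor, against 1.15 and 0.373 RPKM in major and 0.241 and 0.373 RPKM in minor late pupae. It was high in both minor libraries and in no other, and male (25 reads) fell into the late pupal range after rescaling (1.31 RPKM, with late pupae at up to 1.36 RPKM). The pooled difference was 8.59 ± 2.26 log2 units (SE, limma, adjusted p = 0.025) and 12.26 without male. In limma the call was lost without late pupa major replicate 1 (adjusted p = 0.056) or 2 (0.061), late pupa minor replicate 2 (0.061) or minor replicate 1 (0.11) or 2 (0.062). CFLOG009873.1 was high in all 3 adult libraries, at 3087 RPKM in male and 3715 and 4407 RPKM in minor, against 163.4 and 190.6 RPKM in major and 234.4 and 192.7 RPKM in minor late pupae. The pools did not overlap, and its log2 difference was 4.25 ± 0.23 (SE, limma, adjusted p = 4.1e-06). Embryos (1666 and 1569 RPKM) and both larval stages (865.9 to 1395 RPKM) had more of it than late pupae did, and less than adults.

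Across all genes, 842 of 9321 rose in adults (9.03% called) and 374 fell (4.01% called) on both of the scales used, at an adjusted p under 0.05 in limma on log2(RPKM + 1) with the 7 libraries in 2 pools. Among these called genes the falls were larger: 105 of the 374 (28.1%) were of 4 log2 units or more and 18 of 8 or more, against 82 of the 842 rises (9.74%) and 6. Falls numbered 375 on the deposited scale and 736 after rescaling, so those passing only after rescaling are left out of these sizes. Of all 9522 genes tested on the deposited RPKM, 107 fell and 84 rose by 4 log2 units or more. By 2 or more, 278 fell and 533 rose. The median size was 2.11 log2 units for rises and 2.48 for falls, and the pools did not overlap on either scale in 794 of the genes that rose and 365 of those that fell (over all genes, 13.1% and 5.26%). The genes that fell took 0.694% to 0.764% of the RPKM total in adult libraries and 36.5% to 53% in late pupa libraries, with late pupa minor replicate 1 the lowest. Those that rose took 26.5% to 34.3% in adults and 2.68% to 4.18% in late pupae, with late pupa minor replicate 1 the highest. These shares were counted in the libraries that chose the genes and are a description. With late pupa minor replicate 1 left out there were 714 rises, 664 of them among the 842, and 412 falls, 341 of them among the 374. With male left out there were 1252 rises, 740 of them among the 842, and 502 falls, 349 of them among the 374. Rises numbered 486 without late pupa major replicate 1 and 511 when late pupa minor replicate 2 was left out. Without minor replicate 1 there were 421 rises and 240 falls.

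**Figure D2:**
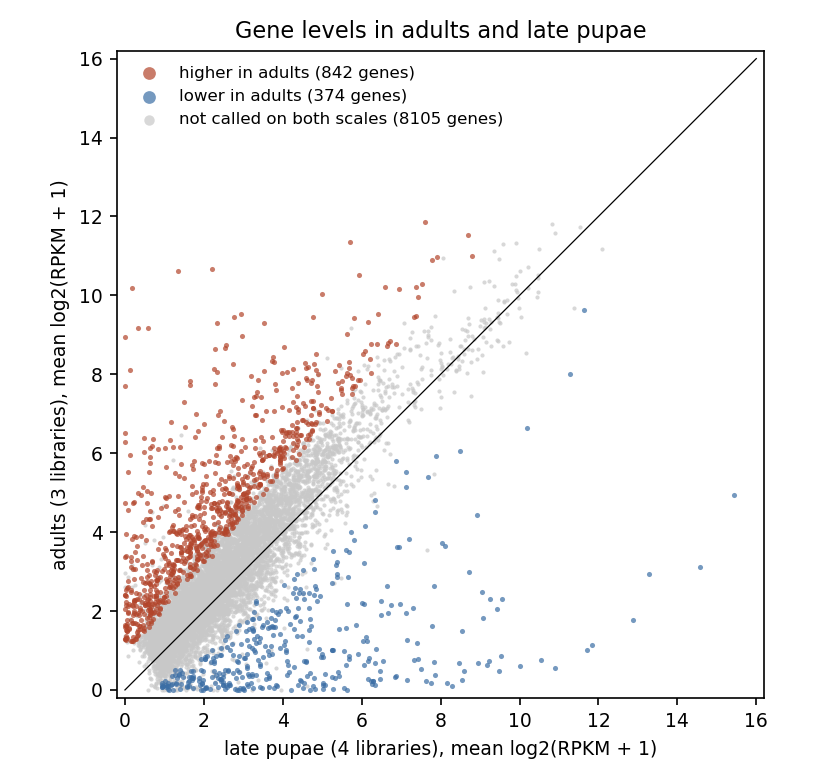
Mean log2(RPKM + 1) in 3 adult libraries (vertical) and 4 late pupa libraries (horizontal) for the 9321 genes tested on both scales, 1 point a gene, with the line of equal levels. Of the genes called on both scales 842 lie above the line (red) and 374 below it (blue), and the blue genes reach further from the line.

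The number of rises and their share of the calls depended on how the libraries were scaled. On the deposited RPKM 1628 of 9522 genes rose (17.1% called) and 375 fell (3.94%), so 81.3% of calls were rises, and the median of all genes was shifted by 0.37 log2 units. The second scale divided a library's values by the median of their ratios to each gene's geometric mean, taken over 10462 genes above 0 in all 7 libraries. The factors were 1.925 for male, 1.314 and 0.675 for minor, and 0.718 to 0.996 for late pupae. There 898 of 9420 genes rose (9.53% called) and 736 fell (7.81%), so 55% of calls were rises, with a median of 0.02. The pools did not overlap in 2479 genes higher (26.0%) and 509 lower in adults (5.35%) on the deposited RPKM, and in 1452 (15.4%) and 1305 (13.9%) on the second scale. On this scale the 95% interval of the difference lay within 1 log2 unit of 0 for 2904 genes (30.8%). Deposited-scale rises numbered 945 without late pupa major replicate 1, 1000 without late pupa minor replicate 2, 752 without minor replicate 1 (where falls numbered 245) and 2579 without minor replicate 2. On the second scale rises numbered 559, 597 and 507 without the same 3 libraries and 1429 without male, and falls numbered 479 without late pupa major replicate 1, 391 without minor replicate 1 and 428 without minor replicate 2. With adults set against the late pupae of 1 caste alone, falls outnumbered rises on the second scale, by 447 to 353 for minor and 718 to 540 for major.

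The largest rises were of genes nearly silent in late pupae, except CFLOG007130.2 in late pupa minor replicate 1. CFLOG002738.2 had 457.1 RPKM in male and 536.2 and 6413 RPKM in minor, against 0.0756 and 0 RPKM in major and 0.29 and 0.179 RPKM in minor late pupae. The late pupal values rest on 1, 0, 5 and 2 reads, and minor replicate 2 was the highest adult library by more than 10 times. The log2 difference was 10.01 ± 0.79 (SE, limma, adjusted p = 4.7e-05) and 12.44 with a pseudocount of 0.1. CFLOG007130.2 had 1343 RPKM in male and 2511 and 1153 RPKM in minor, against 0.293 and 0.209 RPKM in major and 15.8 and 0.625 RPKM in minor late pupae. All adult libraries lay above 1000 RPKM, while late pupa minor replicate 1 held 351 reads of this gene and the other late pupae 3 to 9. The log2 difference was 9.27 ± 0.84 (SE, limma, adjusted p = 0.00011) and 10.17 without late pupa minor replicate 1. Neither gene exceeded 0.39 RPKM in any embryo, larva or early pupa library.

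Beside CFLOG005200.2, the deepest fall was that of CFLOG001115.2. It had 3.06 RPKM in male and 2.9 and 1.55 RPKM in minor, against 11377 and 8426 RPKM in major and 4194 and 7969 RPKM in minor late pupae. Late pupa minor replicate 1 was the lowest late pupa, and still more than 1000 times every adult library. The log2 difference was -11.1 ± 0.36 (SE, limma, adjusted p = 2.3e-07). In early pupae the same gene stood at 2.05 and 4.77 RPKM, and CFLOG005200.2 at 16.7 and 10.2 RPKM, so of early pupa, late pupa and adult both genes were high in late pupa. In embryos CFLOG005200.2 reached 177.3 and 106.3 RPKM.

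**Figure D3:**
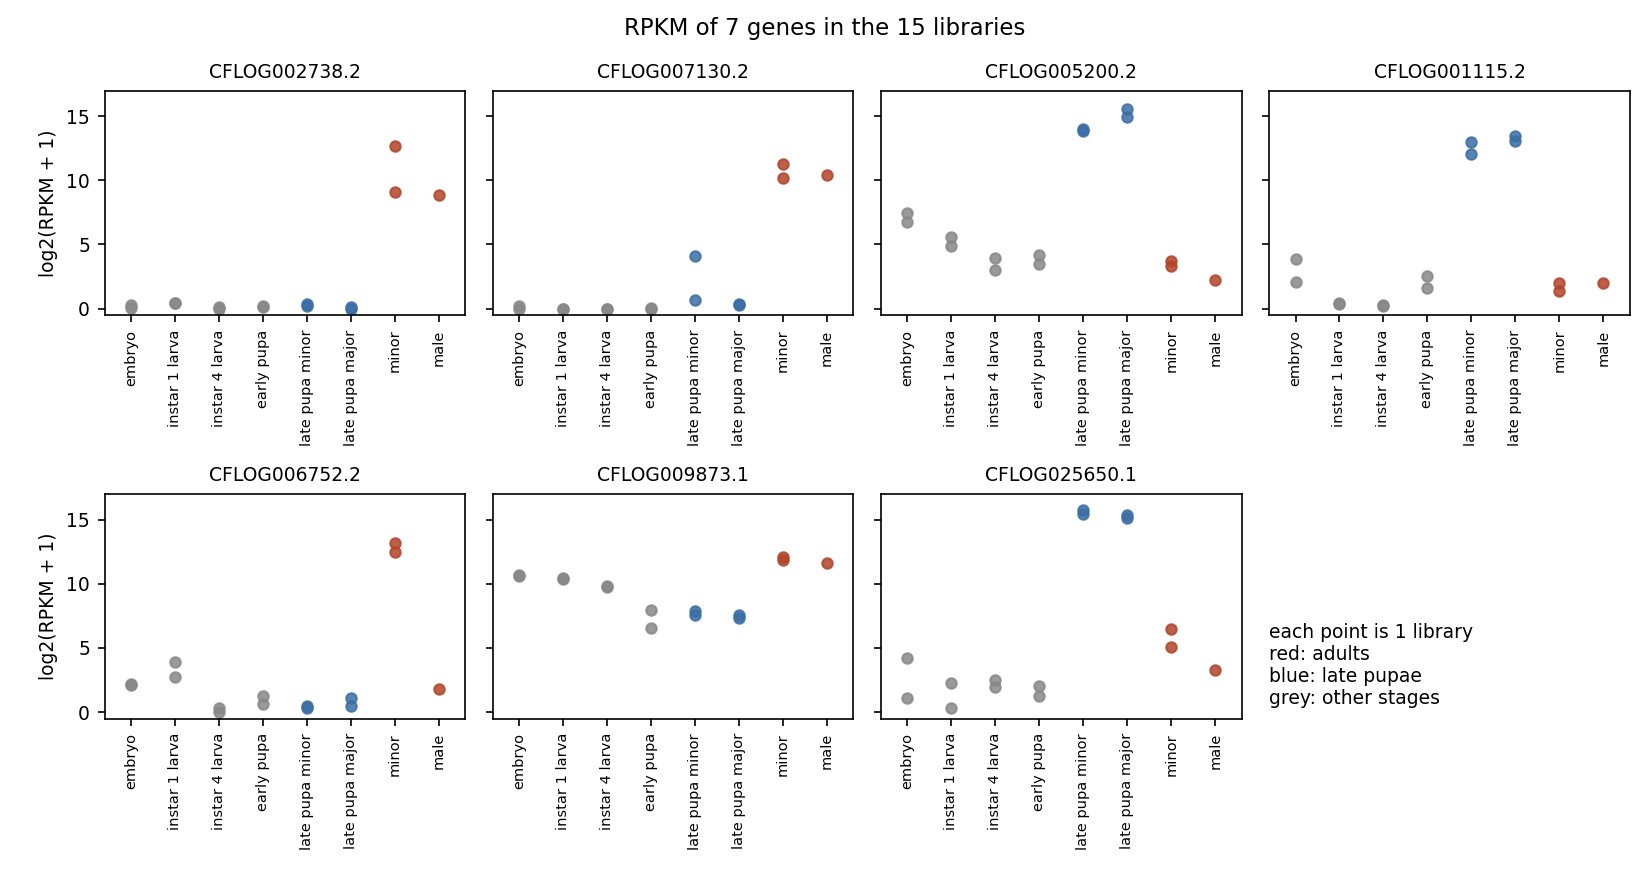
Level of 7 genes as log2(RPKM + 1) (vertical) in the 15 libraries grouped by stage from embryo to adult (horizontal), with adults in red, late pupae in blue and the other stages in grey. CFLOG006752.2 is high in minors and not in male, and CFLOG009873.1 is highest in adults and higher in embryos and larvae than in early and late pupae.

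Genes near 0 in one pool and well expressed in the other were few. At 10 RPKM or more in every adult library and under 1 RPKM in every late pupa library, 14 genes were switched on in adults (0.147% of 9522), and 42 genes were switched off by the reverse rule (0.441%). The switched-on genes had a median of 85.7 RPKM in adults and 0.108 RPKM in late pupae, and the switched-off genes had a median of 0.276 RPKM in adults and 84 RPKM in late pupae. These are the pools that chose the genes, and the stages outside the comparison are independent of that choice. Of the 14 genes on in adults, 10 stayed under 1 RPKM in all 8 libraries of embryo, larvae and early pupa. Of the 42 genes off in adults, 2 did so, while 27 reached 10 RPKM in at least 1 of those libraries and 23 did so in both early pupa libraries. The shares over all genes were not counted, so these counts have nothing to be set against. They are of the deposited RPKM, on which values of the earliest stages run higher. Median-ratio factors over the 15 libraries were 1.616 to 2.332 in embryo and instar 1 and 0.58 to 0.786 in late pupae. Without late pupa minor replicate 1 the genes switched on numbered 29 and those switched off 62, and without male they numbered 24 and 50.

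Among the earlier stages, which the calls did not use, the genes that rose in adults were most often highest in instar 4 larva after rescaling, though in instar 1 on the deposited scale, and the genes that fell were most often highest in early pupa on both scales. For this comparison the 15 libraries were rescaled by median ratios over 9990 genes. Of embryo, the larval instars and early pupa, instar 4 larva was the highest for 444 of the 842 genes that rose (52.7%, against 28.5% of all 9321 genes), and early pupa was the highest for 231 of the 374 that fell (61.8%, against 30.2%). On the deposited scale these counts were 109 (12.9%, against 3.3%) and 186 (49.7%, against 11.5%). On that scale instar 1 larva was the highest for more of the genes that rose (371, or 44.1%, against 35.8%). The share highest in instar 4 exceeded that over all genes on both scales, and no test was made of it. The genes that rose had a median rescaled level of 4.64 log2 units in adults and 2.42 in late pupae, and of 2.35 in embryo, 2.78 in instar 1, 3.21 in instar 4 and 2.1 in early pupa. Those that fell had a median of 0.77 in adults and 4.35 in late pupae, and of 1.87 in embryo, 1.73 in instar 1, 1.5 in instar 4 and 2.85 in early pupa. For 167 of the 842 genes that rose (19.8%) the mean of at least 1 earlier stage reached the adult mean, in instar 4 for 132 (15.7%, against 32.3% of all genes reaching their higher pool there) and in early pupa for 8. On the deposited scale instar 1 reached it for 196 (23.3%, against 67.7% of all genes) and embryo for 162 (19.2%, against 66.9%). Instar 4 did so for 79 (9.38%, against 20.9%) and early pupa for 8 (0.95%, against 39.1%). The order of the stages thus turned with the scale. On both scales these shares lay below those over all genes in each stage. Lower shares were built in, because the called genes were chosen for a higher pool well above the other. The same holds for the genes that fell, so these shares are a description only. For 120 of the 374 that fell (32.1%) an earlier stage reached the late pupal mean, in early pupa for 90 (24.1%, against 32.6%). In any of these stages 56.3% of all genes reached the mean of their higher pool, and on the deposited scale the counts over any stage were 257 (30.5%) and 178 (47.6%), against 75.8%.

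**Figure D4:**
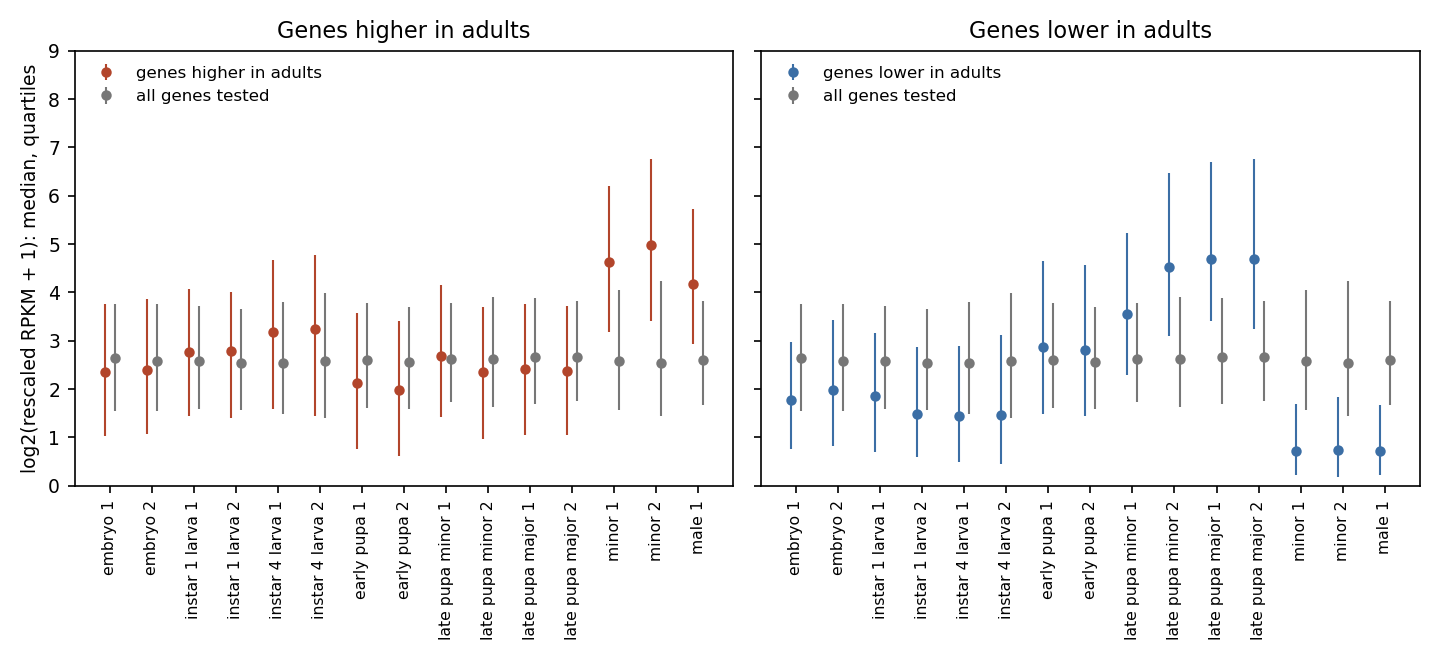
Median and quartiles of log2(rescaled RPKM + 1) (vertical) in each of the 15 libraries from embryo to adult (horizontal), for the 842 genes higher in adults (left, red) and the 374 lower in adults (right, blue), beside all 9321 genes tested (grey). The red medians reach 3.18 and 3.25 in instar 4 larva, and the blue median of late pupa minor replicate 1, 3.55, lies below those of the other late pupae, 4.53 to 4.7.

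Single genes showed both patterns. CFLOG004760.2 had 113.4 RPKM in male and 85.2 and 35.1 RPKM in minor, against 3.37 and 0.85 RPKM in major and 0.917 and 2.11 RPKM in minor late pupae, with no overlap (log2 difference 4.75 ± 0.48, SE, limma, adjusted p = 0.00019). It stood at 45.2 and 64.7 RPKM in instar 1, at 85.7 and 135.2 RPKM in instar 4 and at 6.14 and 19.4 RPKM in early pupa, so early and late pupae lay below both larval stages and adults. CFLOG003563.2 was also high in both larval stages and adults, with 1475 RPKM in male and 380.6 and 122.9 RPKM in minor, against 5.51 and 10.4 RPKM in major and 138.8 and 6.05 RPKM in minor late pupae, and with 327.2 and 539.8 RPKM in instar 1 and 497.4 and 279.2 RPKM in instar 4. Embryos were divided, at 20.9 and 187.6 RPKM. Late pupa minor replicate 1 was above minor replicate 2 on the deposited scale, so its pools overlapped there, though not after rescaling. Its log2 difference of 4.65 ± 1.12 (SE, limma, adjusted p = 0.017) missed the threshold without late pupa major replicate 1 (adjusted p = 0.051), late pupa minor replicate 2 (0.052) or minor replicate 1 (0.058).

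Among genes that fell after an early pupal peak, CFLOG008799.1 had 0.293 RPKM in male and 0.0912 and 0 RPKM in minor, against 99.3 and 110.1 RPKM in major and 3069.6 and 198.6 RPKM in minor late pupae. The adult values rest on 2, 1 and 0 reads, and late pupa minor replicate 1 was more than 10 times any other late pupa. Early pupae had 14134 and 7454 RPKM, and the log2 difference between the pools was -8 ± 1.03 (SE, limma, adjusted p = 0.0008). CFLOG027766.1 had 1.17 RPKM in male and 0.295 and 0.471 RPKM in minor, against 539.1 and 476.5 RPKM in major and 240.9 and 243.6 RPKM in minor late pupae. Its late pupae did not overlap by caste, and early pupae had 1848 and 724.2 RPKM. The log2 difference was -7.78 ± 0.38 (SE, limma, adjusted p = 2.4e-06).

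Male and minor, and the castes of late pupae, were also set against each other. On the second scale male and the mean of minors were further apart than the adult and late pupa pools for 5086 of 9321 genes (54.6%), and the late pupae of the 2 castes for 3840 (41.2%). The median absolute difference was 0.57 log2 units between male and minor, 0.38 between the castes of late pupae and 0.48 between the pools. These distances rest on 1 library against 2, 2 against 2 and 3 against 4, and noise between libraries adds more to a difference of fewer libraries, so they do not rank sex, caste and stage by size. Among the 1216 genes called on both scales, male and minor were 1 log2 unit or more apart in 25.1% (23.7% of all genes) and the late pupal castes in 16% (8.95% of all genes). The caste figures include late pupa minor replicate 1, and no count was made without it. With all 15 libraries rescaled, the genes that fell had a median of 3.55 log2 units in that library. The median was 4.53 in late pupa minor replicate 2 and 4.7 in each major library. For 204 genes both minor libraries lay above and male below every late pupa, and for 252 genes the reverse held, together 4.89% of genes. These counts rest on 1 male library and have no test.

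Of the 204 genes, CFLOG002355.2 had the largest distance between male and minor, with 0.277 RPKM in male and 161.5 and 75.9 RPKM in minor, against 0.324 and 0.171 RPKM in major and 6.89 and 0.213 RPKM in minor late pupae. After rescaling male lay below every late pupa (0.144 RPKM), but on few reads. It had 8 reads, against 9 and 4 in major and 250 and 5 in minor late pupae. On the deposited RPKM male lay above late pupa major replicate 2 and late pupa minor replicate 2. The pooled log2 difference of 3.68 ± 1.47 (SE, limma, adjusted p = 0.11) did not pass. The difference was 5.83 without male (limma, adjusted p = 0.00075) and 2.34 without minor replicate 1. CFLOG001679.2 showed the reverse, with 35 RPKM in male and 0.606 and 0 RPKM in minor, against 0.908 and 3.71 RPKM in major and 3.33 and 5.38 RPKM in minor late pupae. The sexes lay on opposite sides of the late pupae, though minor had 10 and 0 reads and late pupa major replicate 1 had 9. The pooled log2 difference was -0.04 ± 1.07 (SE, limma, adjusted p = 0.99), and -1.65 without male (adjusted p = 0.036). All 8 embryo, larva and early pupa libraries listed CFLOG001679.2 at 0.

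The castes of late pupae lay on opposite sides of adults in some genes. For 36 genes both late pupa major libraries lay above and both late pupa minor libraries below every adult, and for 52 genes the reverse held, together 0.944% of genes. A random order of the 7 libraries would give about this share, so the counts are not read as a caste difference. No test was made of them. CFLOG009756.2, the most divided of the 36, had 3.36 RPKM in male and 2.09 and 1.91 RPKM in minor, against 7.83 and 8.97 RPKM in major and 0.782 and 0.826 RPKM in minor late pupae. Adults lay between the castes, and the pooled log2 difference was -0.28 ± 0.66 (SE, limma, adjusted p = 0.83). CFLOG004400.2 had 55.7 RPKM in male and 22 and 10.7 RPKM in minor, against 5.62 and 5.1 RPKM in major and 28.8 and 23.6 RPKM in minor late pupae. On the deposited scale male lay above all late pupae and the minors below those of their own caste, and after rescaling all adults (15.9 to 28.9 RPKM) lay between the castes of late pupae. The pooled log2 difference was 0.92 ± 0.71 (SE, limma, adjusted p = 0.42).

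The called genes were spread over all kinds of ID. Of 5711 tested CFLOG genes whose ID has the suffix 2, 8.65% rose and 4.15% fell, and of 3399 with the suffix 1, 9.71% rose and 3.88% fell. Of 211 tested XLOC loci 18 rose (8.53%) and 5 fell (2.37%). The median recovered length was 1014 nt for genes that rose, 1071 nt for those that fell and 1161 nt for all genes tested, with a length known for 98.9%, 98.7% and 98.8% of them.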

How the data were processed

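The authors deposited RPKM per gene and library, per the labels and the values. The submitters' processing notes list STAR 2.5.0b and DESeq2 without saying what each did. Genome build, annotation and counting were not given in the sources used here. Columns were matched to samples by the 2 header lines, and 0 were left without a sample.

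Members and rules were chosen with earlier results of these data known. Pools were compared in limma 3.58.1 (R 4.3.3) after a log2(RPKM + 1) transform, with trended eBayes, two-sided, with Benjamini-Hochberg adjustment and a threshold of 0.05. Genes with 1 RPKM or more in at least 2 of the 7 libraries were kept. Differences are adults minus late pupae on that log2 scale, which understates changes of low genes. SEs are limma's, SDs are over libraries, and fold sizes and adjusted p are of the deposited scale unless rescaling is named. Median-ratio rescaling gave the second scale.

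Lengths came from read steps. They are mostly coding lengths, since 90.3% of CFLOG lengths were multiples of 3. Recovered reads of low values were 100% whole within 0.05, as the recovery requires. Floors of 3 reads cover counting error only. No pair of replicates was a repeated deposit: the median chi-square per gene (1 degree of freedom) was 3.51 to 8.98. The length recovery and the limma steps were tested on simulated data. Near-identical copies could not be looked up.

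IDs were named by rule, at most 2 in each direction: largest changes passing on both scales without overlap, largest changes of share, largest changes matched in larvae or early pupa, and the most divided within each pool.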

Additional observations from a re-analysis of the deposited data

Results flagged for a closer look

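Late pupal values were examined for a library far from the other 3 in 19 gene levels and library measures, of which 6 had one. Chance gives about 1 in 20 for independent, normally distributed values. The genes here were picked for large differences, so the 6 cannot be set against that rate. Late pupa minor replicate 1 was the distant library in 4 of them: CFLOG007130.2 at 15.8 RPKM, CFLOG003563.2 at 138.8 RPKM, CFLOG008799.1 at 3069.6 RPKM and CFLOG002355.2 at 6.89 RPKM, each the highest. Late pupa major replicate 1 was the highest in the others. It had 1.15 RPKM for CFLOG006752.2, on 11 reads against 3 in each other late pupa. Its share of the RPKM total in the 50 most abundant genes was 58.3%.

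Samples within a pool lay on opposite sides of the other pool after rescaling in 4 genes, and these differences were not tested. For CFLOG002355.2 the side of male rests on 8 reads. After rescaling, male minus minor was -6.7 log2 units for CFLOG002355.2 and 3.99 for CFLOG001679.2, with 1 male library. Late pupa major minus late pupa minor was 2.37 for CFLOG009756.2 and -2.23 for CFLOG004400.2.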

How the results depend on the processing

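Leaving out each library in turn gave 752 to 2579 genes higher and 245 to 505 lower in adults on the deposited scale, 507 to 1429 and 391 to 941 after rescaling, and 421 to 1252 and 240 to 502 on both scales. Switched-on genes then numbered 14 to 29 and switched-off genes 42 to 62, in an alternative chosen after seeing the data. The adult minus late pupa difference in genes at 1 RPKM or more ran from -350 to 949, and it was -355 after rescaling. Rescaling gave 898 genes higher and 736 lower, and 1452 and 1305 whose pools did not overlap. With late pupa major alone, rises numbered 823, 540 after rescaling and 397 on both scales. With late pupa minor alone they numbered 518, 353 and 239, and falls 195, 447 and 194. A fit of all 15 libraries gave 1566 rises and 1317 falls after rescaling and 1496 rises on both scales, and 1 term per group gave 2453 rises on the deposited scale. Genes switched off numbered 24 at limits of 10 and 0.5 RPKM, and genes higher in adults that were highest in instar 4 numbered 109 on the deposited scale. Some differences that did not pass changed sign: CFLOG001679.2 was 0.37 with late pupa major alone, 0.77 with 1 term per group and -1.65 to 0.94 with a library left out. CFLOG009756.2 was 0.91 with late pupa minor alone and -0.68 to 0.15 with a library left out, and CFLOG004400.2 was -0.13 with late pupa minor alone. The cause of these changes was not tested. A replicate block could be fitted only without male and gave 1245 rises and 491 falls on the deposited scale and 1207 and 778 after rescaling, against 1437 and 505, and 1429 and 941, without male and without the block. Deviations of same-numbered libraries correlated at -0.23 between minor and late pupa major and 0.14 between minor and late pupa minor. Between the castes of late pupae the value was -0.18. The labels do not say what same-numbered libraries share, and these values cannot decide it. A gene that was not called is not shown to be equal: after rescaling, the 95% interval of the difference reached a median of 0.74 log2 units to either side.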

Other observations

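Called genes lay near each other in ID number. Among genes that fell in adults and had a tested gene with the next or previous number of the same series, 90 of 233 (38.6%) had such a neighbour that also fell, against 4.99% over all 5791 tested genes with a neighbour. The share was 29.8% at a distance of 2 numbers, 7.88% at 5, 10.1% at 20 and 6.86% at 100, against 4.7% to 5.36% over all tested genes at these distances. Among genes that rose, 116 of 513 (22.6%) had an adjacent number that also rose, against 10.8% over all, and the share was 17% at 2 numbers, 11.5% at 5, 12.9% at 20 and 12.3% at 100, against 10.5% to 11.5% over all. What orders the numbers is not described in the labels, and reads divided between overlapping or near-identical models were not tested.

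The number of genes at 1 RPKM or more was 9518 in male and 8546 and 6921 in minor, against 7926 and 8460 in major and 8497 and 7449 in minor late pupae. The adult and late pupal ranges overlapped on the deposited scale (exact permutation test, two-sided, p = 0.629). After rescaling it was 8308 in male and 7978 and 7773 in minor, against 8314 and 8469 in major and 8539 and 8175 in minor late pupae (exact permutation p = 0.114), so the order of the pools turned with the scale.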
